A study of Rattus norvegicus with 12 samples.

Results

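Synaptic activity at 5 min was measured on 4 nylon arrays, of 12 in the series. Primary neurons from the hippocampus of Sprague-Dawley rat embryos were grown for 12 days on a feeder layer of glia, so the RNA is that of a mixed culture. Every culture first sat for 3 h in Block, a cocktail that silences glutamate receptors with D-APV (50 µM) and CNQX (40 µM) and sodium channels with tetrodotoxin (100 nM). The arrays with activity received 50 µM bicuculline and 500 µM 4-aminopyridine (BiC/4AP), which free the network from inhibition and prolong the release of transmitter, and the others stayed in Block. Each of these came without and with 25 µM actinomycin D (ActD), which stops transcription. The groups were therefore BiC/4AP, BiC/4AP + ActD, Block and Block + ActD, with 1 array each. The labels describe 3 pooled coverslips per sample, while the methods of the study describe RNA combined from separate experiments, and all samples carry the same replicate number. Any p-value here rests on disagreement between single pooled arrays, shared over genes, and not on repeated experiments.

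The comparison asked which transcripts differed with activity irrespective of new transcription. The BiC/4AP array minus the Block array of the same ActD state gave a pair difference, so each transcript had 2 of them. A gene was described where at least 2 of its cDNA clones were brighter, as a mean over all 12 arrays, than the dimmest 25% of spots. That limit was an intensity of 29.9. This left 1059 genes with 2580 clones, of 5079 genes with at least 1 such clone and 6284 named genes. Most of them, 781, had 2 clones, 198 had 3 and 80 had between 4 and 12. The clones were human cDNAs, so names are human symbols and rat transcripts of closely related genes can bind the same clone.

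A burst of firing reaches mRNA by more than 1 route. Calcium entering through NMDA receptors and voltage-gated channels switches on immediate early genes within minutes, which needs transcription. Transcripts that already exist are stabilized, degraded or moved by RNA-binding proteins and miRNAs, which does not, and in axons and dendrites this includes mRNAs for the cytoskeleton and for ribosomal proteins.

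The tubulins stood on 1 side in most of their clones. Of 31 clones of the 5 tubulin genes, 28 were higher with BiC/4AP than with Block in both pairs, beside 25.3% of all named clones above the brightness limit. Ribosomal protein genes lay on the other side, with 55 of 126 clones lower in both pairs and 17 higher in both. The corresponding share of lower clones over all named clones above the limit was 29.8%. The median difference of the ribosomal clones was -0.21 without and 0.01 with ActD.

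Levels are given on a scaled log2 scale, on which 0 is the mean of the array, and differences on the same scale read as log2 changes. In the limma fit over the 4 arrays with ActD as a covariate, 121 of 8496 clones passed an adjusted p of 0.05, which is 1.42%, of which 84 were higher (0.989%) and 37 lower (0.435%). At the level of gene means, 82 of 5079 genes passed, or 1.61%, of which 60 were higher (1.18%) and 22 lower (0.433%). Among the 1059 genes with several clones 3 passed, or 0.283%. They were TUBB3 and BTN2A2, which were higher, and RPS24, which was lower. At an unadjusted p under 0.05 there were 62 of the 1059 genes (5.85%), against 11.5% of all genes tested. The fit had 1 residual degree of freedom and the prior it shared over genes was unbounded. The standard errors, 0.18 to 0.32, were therefore pooled over genes of like brightness and did not reflect a gene's own arrays. BTN2A2, whose pairs were at -0.22 and 2.07, and TUBA1C, at 0.40 and 0.60, both had 0.18. No gene passed when all 12 arrays set the spread (245 genes at an unadjusted p under 0.05), or when medians of print block and position were removed (284 genes).

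Place on the filter moved with the differences. By their spot numbers the spots were divided into 384 blocks of 25. In the first of 4 equal stretches of the print order the median clone difference was 0.09 without and 0.29 with ActD, and in the last it was -0.15 and -0.18. Of the called clones above the brightness limit in the first stretch, 59 of 60 were higher with BiC/4AP, and in the last 9 of 12 were lower. Removing block and position medians took away 25.6% of the variance of the difference without ActD and 47.2% of that with ActD. Values with these medians removed therefore stand beside the main ones.

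**Figure D1:**
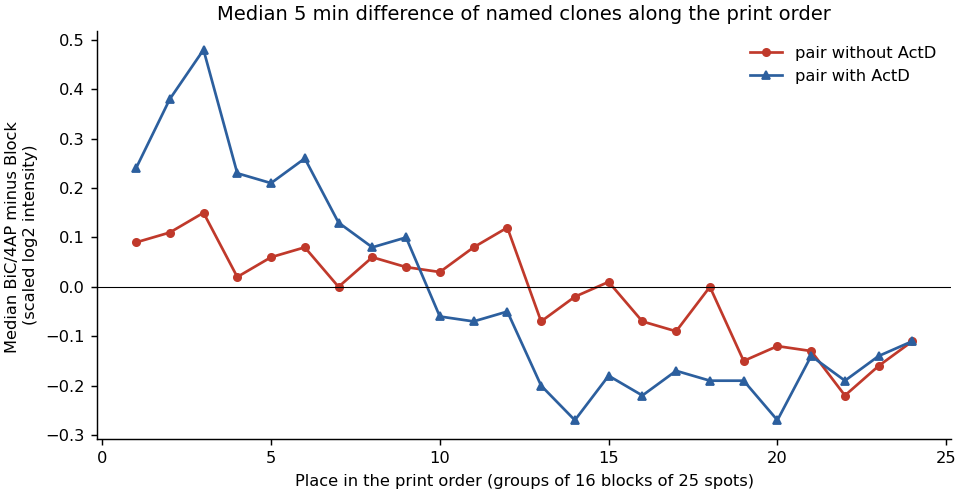
Median BiC/4AP minus Block difference (scaled log2 intensity) of named clones above the brightness limit, in 24 successive groups of 16 print blocks, without ActD (circles) and with ActD (triangles). The median with ActD reached 0.48 in the early blocks and -0.27 in later ones, and without ActD it lay between 0.15 and -0.22.

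Clones of the same gene agreed weakly over the whole set. Over 2580 clones, the correlation between a clone's difference and the mean of the other clones of its gene was 0.126 without ActD and 0.053 with ActD, and 0.157 and 0.124 with print medians removed. Mean brightness correlated at 0.166 over the same clones and 0.096 over 107 pairs of spots that share an accession. The pair differences correlated at 0.18 over clones and 0.056 with print medians removed. Spots were named through 1 of the 2 spot indices in the raw table, and with agreement this weak some clones may carry a wrong name, which was not tested and bears on every gene value below. Clones share arrays, so the correlations are descriptions.

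**Figure D2:**
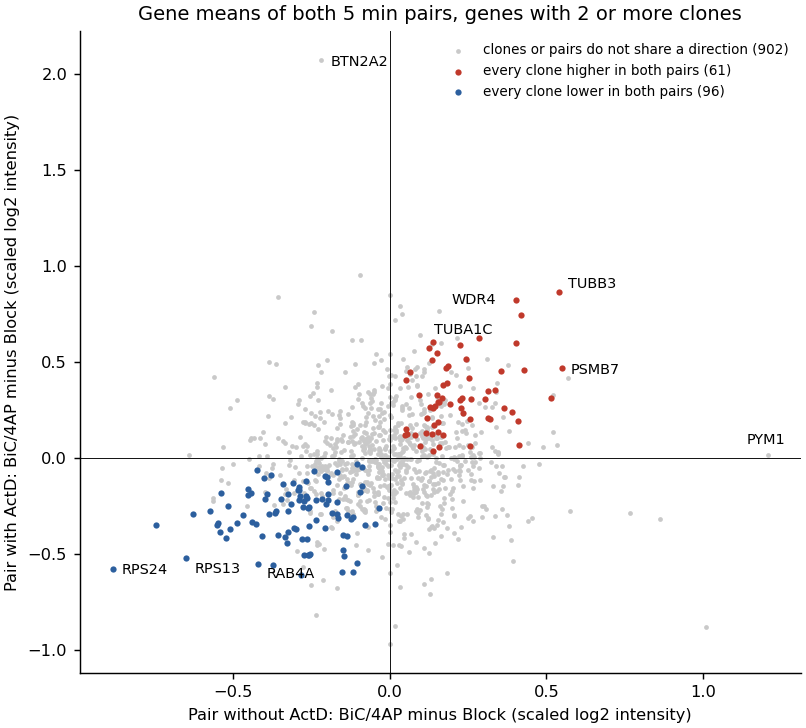
Mean difference over clones (BiC/4AP minus Block, scaled log2 intensity) of each of the 1059 genes with several clones, without ActD on the x axis and with ActD on the y axis. The 61 genes whose clones were all higher in both pairs are red, the 96 whose clones were all lower are blue, and BTN2A2 and PYM1 lie far out in 1 pair alone.

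In 61 genes every clone was higher with BiC/4AP in both pairs (5.76%), and in 96 every clone was lower (9.07%). In a further 100 genes (9.44%) the clones agreed within each pair and the pairs pointed opposite ways. With print medians removed the counts were 57 higher, 62 lower and 94 opposed, and 23 of the 61 and 36 of the 96 were found again. Of the genes whose clones all went 1 way, 56 higher and 85 lower had only 2 clones. Only 5 of the 80 genes with 4 or more clones did so, TUBA1C and TUBB on the higher side and ACTB, CDK4 and NONO on the lower side. The genes with 3 clones were DLST, HNRNPU and TRIR (higher) and AP2M1, NOSIP, RPL35A, RPL41, RPLP2, RRP9, SLC1A7 and TMEM51 (lower). These genes were listed after their values were seen.

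TUBB3 is the class III beta-tubulin of neurons. Its level, averaged over 2 clones, was -0.17 on the BiC/4AP array and 0.18 on BiC/4AP + ActD, against -0.71 on Block and -0.69 on Block + ActD. TUBB3 was among the genes picked for clones that all went 1 way, so that direction was set by the choice. The brighter clone read 36.84 and 33.78 intensity units with BiC/4AP without and with ActD, against 23.71 and 20.53 with Block, and the other clone 24.15 and 29.81 against 20.46 and 17.37. The difference was 0.70 ± 0.21 (SE, 2 arrays against 2; 1.63-fold, limma adjusted p = 0.045). It was 0.35 with print medians removed (adjusted p = 0.88), where every clone was still higher in both pairs. The adjusted p was 0.13 after quantile normalization and 0.53 when only the 1059 genes were fitted.

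TUBA1C, an alpha-tubulin, was measured by 5 clones in 5 different print blocks. Its mean level was 0.87 with BiC/4AP and 1.06 with BiC/4AP + ActD, against 0.47 with Block and 0.46 with Block + ActD. All 10 clone values were above 0, which the rule that picked the gene required, and they lay between 0.29 and 1.01. The difference was 0.50 ± 0.18 (1.42-fold, limma adjusted p = 0.16) with an SD of 0.13 over clones. With print medians removed it was 0.45, and again every clone was higher in both pairs.

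The other tubulins with several clones were described after their values were seen. TUBB4B, a beta-tubulin, stood at 1.10 and 1.48 with BiC/4AP without and with ActD, against 0.88 and 0.85 with Block, a difference of 0.42 ± 0.18 over 7 clones (limma adjusted p = 0.29). Of its clones 6 were higher in both pairs and the dimmest was lower in both. TUBB stood at 0.59 and 0.62 with BiC/4AP against 0.40 and 0.13 with Block, with all 5 clones higher in both pairs (difference 0.34 ± 0.18, adjusted p = 0.48). TUBA1B had the most clones of any gene, 12, and 10 of them were higher in both pairs. Its level was 1.95 and 2.05 with BiC/4AP against 1.68 and 1.68 with Block, a difference of 0.32 ± 0.18 (adjusted p = 0.51). The clone of TUBA1B that was lower in both pairs was by far the brightest, at 3091.30 and 2777.36 units with BiC/4AP against 3455.98 and 4131.18 with Block.

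Over the 31 tubulin clones the median difference was 0.30 without ActD and 0.52 with ActD, and 0.24 and 0.53 with print medians removed. After that removal 27 of 31 were higher in both pairs, beside 24.4% of all named clones above the limit. Tubulin genes with a single clone are no members of this set, and 4 of the 8 were higher in both pairs, with medians of 0.20 without and 0.33 with ActD. TUBA3C, TUBB4A, TUBB6 and TUBG1 had opposed pairs, and TUBB6 for example was at -0.18 and 0.99. TUBB2A, a beta-tubulin and the highest of them, had differences of 0.80 and 1.53 (mean 1.17 ± 0.18, limma adjusted p = 1e-07, 0.48 with print medians removed). The tubulin coding sequences are closely alike, so their clones may in part report the same transcripts, which could not be told apart here.

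**Figure D3:**
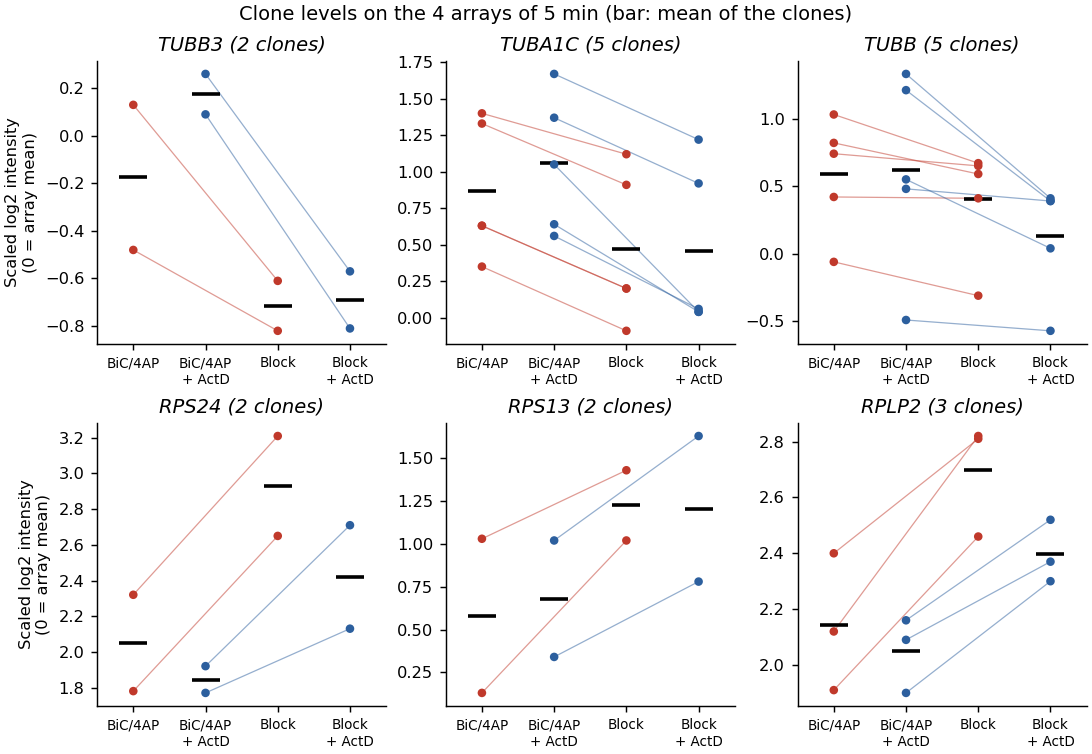
Scaled log2 intensity (0 = array mean) of every clone of 3 tubulin genes (top) and 3 ribosomal protein genes (bottom) on the BiC/4AP, BiC/4AP + ActD, Block and Block + ActD arrays of 5 min. Lines join a clone's arrays of the same ActD state and bars are clone means, with TUBA1C at 0.87 and 1.06 against 0.47 and 0.46.

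Some other cytoskeletal genes gave values on the other side, of which ACTB, TMSB10 and MAP4 were picked because all their clones shared a direction. Actin-binding genes with several clones were mixed. TMSB4X was at -0.09 without and 0.95 with ActD, ACTN1 at 0.02 and 0.43, CFL1 at -0.2 and 0.08, and FSCN1 at -0.17 and -0.14. ACTB, beta-actin, had 5 clones, all lower with BiC/4AP in both pairs, at 1.45 and 1.33 without and with ActD, against 1.92 and 1.63 with Block. The difference was -0.38 ± 0.18 (limma adjusted p = 0.37), and -0.23 with print medians removed, where the dimmest clone was at -0.13 and 0.12. ACTG1, gamma-actin, had 5 of 9 clones lower in both pairs and 1 higher in both, and its mean difference was -0.39 without and -0.08 with ActD (-0.44 and -0.20 with print medians removed). TMSB10, a thymosin that binds actin monomers, was at 5.17 and 4.99 with BiC/4AP against 5.57 and 5.39 with Block (difference -0.40 ± 0.24, adjusted p = 0.54, and -0.32 with print medians removed). MAP4, a microtubule-associated protein, was at 0.05 and 0.05 against 0.41 and 0.33 (difference -0.32 ± 0.19, adjusted p = 0.52, and -0.26 with print medians removed). The axon and cytoskeleton list as a whole had 21 genes with several clones, of which 3 had all clones higher (TUBB3, TUBA1C, TUBB) and 3 all lower (ACTB, TMSB10, MAP4). Of these, TUBB3, TUBA1C and TMSB10 kept all clones on their side with print medians removed. The list's median was 0.09, and 0.04 with print medians removed, beside -0.01 over the 1059 genes.

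**Figure D4:**
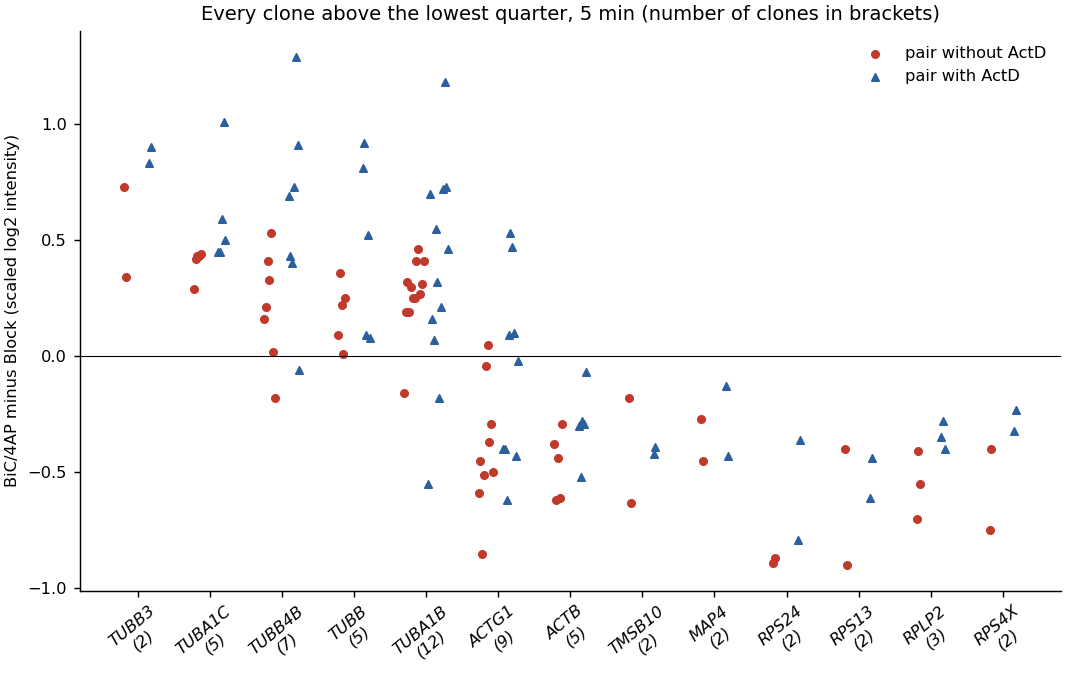
BiC/4AP minus Block difference (scaled log2 intensity) of every clone of 5 tubulin genes, 2 actins, TMSB10, MAP4 and 4 ribosomal protein genes, without ActD (circles) and with ActD (triangles). Nearly all tubulin points lie above 0. ACTB and the ribosomal proteins shown lie below 0 and were picked for clones all lower in both pairs. ACTG1 lies on both sides with ActD.

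Ribosomal proteins are the structural subunits of the ribosome and their mRNAs are among the most abundant in any cell. Of 38 such genes with several clones, 26 were below 0 and 12 above, with a median of -0.13. Over all 1059 genes 555 were below 0 and 504 above. The median was -0.26 without ActD and -0.06 with ActD, and -0.14 over both with print medians removed. Every clone was lower in both pairs in 11 of them (28.9%, beside 9.07% of all 1059), and in none were all clones higher. With print medians removed these counts were 12 and 0. Of the 38, 10 had an unadjusted p under 0.05 in the limma fit, beside 62 of the 1059 genes (5.85%) and 11.5% of all genes tested. Only 1 of the 38, RPS24, had an adjusted p under 0.05, beside 3 of the 1059 (0.283%). RPL38, with a single clone, was also lower (-0.72 ± 0.19, limma adjusted p = 0.014, 0.62 with print medians removed).

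RPS24, of the small subunit, was at 2.05 with BiC/4AP and 1.85 with BiC/4AP + ActD, against 2.93 with Block and 2.42 with Block + ActD. Its brighter clone read 171.00 and 110.52 units with BiC/4AP without and with ActD, against 331.28 and 205.44 with Block, and the other 116.90 and 98.85 against 224.38 and 136.76. The difference was -0.73 ± 0.18 (0.603-fold, limma adjusted p = 0.0093). With print medians removed it was -0.60 (adjusted p = 0.81), and after quantile normalization the adjusted p was 0.086. RPS13, also of the small subunit, was at 0.58 and 0.68 with BiC/4AP against 1.23 and 1.20 with Block, a difference of -0.59 ± 0.18 (adjusted p = 0.059). It was -0.32 with print medians removed (adjusted p = 0.88). RPLP2, a protein of the ribosomal stalk, was at 2.14 and 2.05 against 2.70 and 2.40, with all 3 clones lower (difference -0.45 ± 0.18, adjusted p = 0.25, and -0.39 with print medians removed). RPS4X differed by -0.42 ± 0.18 and RPL36AL by -0.38 ± 0.18. The others with all clones lower, RPL21, RPL35, RPL35A, RPL36, RPL41 and RPS19, were listed after their values were seen and had differences of -0.30 to -0.46. RPL3, with 11 clones, had a difference of 0.00, at -0.12 without and 0.12 with ActD. EEF1A1, the elongation factor that delivers tRNA to the ribosome, had -0.27 without and 0.26 with ActD over 9 clones, and NPM1, a nucleolar chaperone of ribosome assembly, had 8 of 11 clones lower in both pairs with a mean of -0.09 ± 0.18 (adjusted p = 0.93).

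Of the genes whose clones were all higher, those with the largest smallest value were, after TUBB3, WDR4, TUBA1C and PSMB7. WDR4, a subunit of a tRNA methyltransferase, was at -0.01 and 0.09 with BiC/4AP against -0.41 and -0.73 with Block (difference 0.61 ± 0.20, limma adjusted p = 0.097). Most of the WDR4 value with ActD came from 1 clone, whose difference was 1.34 there, and 0.27 with print medians removed. PSMB7, a catalytic subunit of the proteasome, was at 0.87 and 0.72 against 0.32 and 0.25 (0.51 ± 0.18, adjusted p = 0.15), and 0.35 with print medians removed. NME1, a nucleoside diphosphate kinase, was at 0.17 and 0.33 against -0.25 and -0.42 (0.58 ± 0.19, adjusted p = 0.097), and 0.32 with print medians removed. Most of the NME1 value with ActD came from 1 clone, at 1.31 there against 0.18 for the other clone. With print medians removed these clones were at 0.49 and 0.03 with ActD. TRAPPC12, of a complex that tethers transport vesicles, had clone values between 0.23 and 0.40 (0.33 ± 0.18, adjusted p = 0.48).

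The remaining 6 on this side had differences of 0.28 to 0.42. They were VDAC2, a channel of the outer mitochondrial membrane, P4HB, a protein disulfide isomerase, FIBP, HLA-DRB1, the long noncoding RNA CYTOR, and CSTB, an inhibitor of cathepsins. VDAC2, P4HB and CSTB were at 0.02, 0.09 and 0.05 with print medians removed. None of the 12 other than TUBB3 passed the test.

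On the lower side, RAB4A, a small GTPase of recycling endosomes, was at 0.32 with BiC/4AP and -0.13 with BiC/4AP + ActD, against 0.74 with Block and 0.42 with Block + ActD. Its difference was -0.49 ± 0.18 (limma adjusted p = 0.19), and -0.33 with print medians removed, with both clones lower in both pairs either way. HSD17B11, a dehydrogenase of lipid droplets, was at 0.04 and -0.26 against 0.37 and 0.15 (-0.37 ± 0.19, adjusted p = 0.42) and -0.33 with print medians removed. PPM1G, a protein phosphatase, TMUB2, PIGS, of the enzyme that attaches GPI anchors, ZNF408, a zinc finger protein, and MTRF1L, a release factor of mitochondrial translation, had differences of -0.30 to -0.45. MTRF1L was at -0.04 and TMUB2 at -0.11 with print medians removed. COMMD8, with one of the smallest p-values on the lower side, was at 0.81 and 0.97 against 1.56 and 1.31 (-0.55 ± 0.18, adjusted p = 0.095), and -0.31 with print medians removed (adjusted p = 0.88).

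Several of the smallest p-values came from a single reading. BTN2A2, a butyrophilin of the immunoglobulin superfamily, had the smallest p of the 1059 genes (difference 0.93 ± 0.18, limma adjusted p = 0.00011). Its clones went different ways, with an SD of 1.53 between them. One clone read 26.23 units with BiC/4AP and 552.80 with BiC/4AP + ActD, against 34.29 with Block and 27.86 with Block + ActD, while the other read 48.08 and 47.84 against 56.63 and 58.43. Without the arrays with ActD the difference of BTN2A2 was -0.22. PYM1, a partner of the exon junction complex, had 1 clone at 93.13 units on the BiC/4AP array and 20.94 to 24.55 on the other arrays, and its gene difference was 1.21 without and 0.02 with ActD. CDK16, a kinase of the CDK family, had 1 clone at 303.68 units on Block + ActD and 33.99 to 57.12 on the others, with a difference of 0.00 without and -0.96 with ActD. NDRG1, a stress-responsive gene, likewise had a clone at 9.14 units on BiC/4AP + ActD and 20.60 to 27.22 on the others.

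By the cut used in the study, a z-fold past 1.4 in the same direction in both pairs, 55 of 8496 named clones qualified (0.647%), of which 3 belonged to the 1059 genes. They were 1 clone each of CKS1B, a subunit of cyclin-dependent kinases, VARS2, a mitochondrial tRNA synthetase, and ZYX, a focal adhesion protein, all higher. In no gene did 2 clones qualify. The CKS1B clone had z-folds of 2.63 without ActD and just over the cut with it, and the other clone of CKS1B had -0.52 and 0.09. The VARS2 clone had 1.84 and 1.60 and its other clone 0.10 and -0.44. The ZYX clone had 1.64 and 1.76 and its other clones -0.25 and 1.01, and -0.93 and -0.28. Without the blank and placeholder spots in the SD, 21 clones of 21 genes qualified, among them 1 clone each of TUBB3, PSMB7 and RPS24, and still no gene with 2.

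Immediate early genes are the transcription factors and signalling genes that activity induces first. Of 6 such genes with several clones 5 were above 0, beside 504 of all 1059, with a median of 0.15. MYC, a transcription factor, had both clones higher in both pairs, at 0.32 and 0.25 with BiC/4AP against -0.02 and -0.10 with Block (0.34 ± 0.19, limma adjusted p = 0.48). IER3 had both clones lower (-0.19 ± 0.18, adjusted p = 0.81) and was at -0.05 with print medians removed. Of all 25 genes on the list with a clone above the limit, 17 were above 0, beside 2394 of all 5079 genes. The test was passed by 1 of the 25, beside 82 of the 5079 (1.61%). That gene was JUNB, an AP-1 subunit with a single clone, at 0.11 and 0.54 with BiC/4AP against -0.33 and -0.69 with Block (0.83 ± 0.19, adjusted p = 0.0034, 0.81 with print medians removed).

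The synaptic lists held few genes with several clones. Of 10 for vesicles and release 8 were below 0, beside 555 of all 1059, with a median of -0.07 and 0.00 with print medians removed. None of the 39 genes on the list with a clone above the limit passed the test, beside 1.61% of all genes tested. AP2M1, the medium subunit of the clathrin adaptor of endocytosis, had all 3 clones lower, at 0.81 and 0.68 with BiC/4AP against 1.06 and 1.18 with Block (-0.38 ± 0.18, limma adjusted p = 0.38). The postsynaptic list had 4 genes with a median of -0.03, and the list for mRNA decay and RNA binding had 7 with a median of 0.03, in which no gene had its clones all on 1 side in both pairs. Over all 38 genes of the decay list with a clone above the limit the median was -0.11. Of these 13 were above 0, beside 2394 of all 5079, and none passed the test, beside 1.61% of all genes tested. Above 0 were 10 of 20 respiratory chain genes with several clones (504 of all 1059) and 21 of all 54 on the list (2394 of all 5079). Of the 54, 2 passed, beside 1.61% of all genes tested. Both had a single clone and were lower, COX5B (-0.62 ± 0.18, limma adjusted p = 0.041) and ATP5F1E (-2.52 ± 0.27, adjusted p = 4e-17). ATP5F1E differed by -0.57 without and -4.47 with ActD. With print medians removed the adjusted p of COX5B was 0.88 and that of ATP5F1E 0.81. Among the genes with several clones NDUFV2 (0.35 ± 0.19) and COX7C (0.17 ± 0.18) had both clones higher and NDUFA9 (-0.07 ± 0.21) had both lower, and COX7C was at -0.02 with print medians removed. In the transcription machinery GTF2H1, of the factor TFIIH, had both clones higher (0.34 ± 0.19) and POLR2K, a subunit shared by the RNA polymerases, had both lower (-0.37 ± 0.23). On that list 1 of 42 genes passed, beside 1.61% of all genes tested. It was ELOB, with a single clone that was higher, at 1.08 without and 0.52 with ActD (0.80 ± 0.19, limma adjusted p = 0.0033, 0.81 with print medians removed). The proteasome list had a median of -0.03 over 11 genes with several clones and 0.04 over all 27. Of the 27, 2 passed as single clones, PSMD4 (0.67 ± 0.18) and PSME2 (0.63 ± 0.18), beside 1.61% of all genes tested. With print medians removed PSMD4 was at 0.44 (limma adjusted p = 0.88) and PSME2 at -0.03 (adjusted p = 0.99). Over 16 heat shock genes the median was 0.04, and only BAG3, a partner of HSP70, had both clones lower (-0.22 ± 0.19, and 0.04 with print medians removed).

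The study followed predicted targets of miRNAs whose seeds it linked to destabilized transcripts. Its targets of miR-666-3p and miR-761 were not examined here. The rat miRNAs whose targets were examined are shown because the first and second share their seed, so that a single target list stands for both. The sequences are from RefSeq (GRCr8), with bases 2 to 8 in capitals.
rno-miR-326-3p: cCUCUGGGcccuuccuccagu
rno-miR-330-5p: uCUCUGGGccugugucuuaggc
rno-miR-485-5p: aGAGGCUGgccgugaugaauuc
Of the targets listed for miR-326-3p and miR-330-5p, 13 genes had several clones, with 4 above 0, 9 below and a median of -0.02. Of those listed for miR-485-5p, 16 had several clones, with 9 above 0, 7 below and a median of 0.03. Over all genes listed, none of 74 targets of the shared seed and 3 of 68 targets of miR-485-5p passed the test, beside 82 of all 5079 genes (1.61%). The 3 targets of miR-485-5p had single clones and were higher, AKAP12 (0.91 ± 0.18, limma adjusted p = 0.00018), THTPA (0.75 ± 0.18, adjusted p = 0.0056) and TMEM248 (0.62 ± 0.18, adjusted p = 0.041). With print medians removed the limma adjusted p of AKAP12 and of THTPA was 0.88. AKAP12 was at 2.30 without and -0.49 with ActD, and TMEM248 at -0.01 with print medians removed. The median of all 1059 genes was -0.01, with 504 above 0 and 555 below. PTBP1, a splicing repressor (-0.20 ± 0.18), and NONO, a paraspeckle protein with 4 clones (-0.23 ± 0.18), had every clone lower among the targets of the shared seed. EPS8L1 (0.12 ± 0.19) and STX5 (0.08 ± 0.18) had both clones higher among those of miR-485-5p. The study chose these miRNAs on its own arrays, so the lists are not independent of the experiment.

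The markers of cell types were checked on the same arrays. On each, 95% of blank spots lay at or below 10 units, which is also the placeholder value. Clones above it are therefore not shown to exceed a measured background. Of 25 clones of 19 neuron markers, 23 were brighter on all 4 arrays than 95% of blank spots, among them SNAP25, STMN2, MAPT and NEFM but not INA and GRIA2. So were 18 of 20 clones of 16 astrocyte markers, among them GFAP and VIM but not APOE and SOX9. Neuron marker clones summed to 1541 and 1440 unscaled units with BiC/4AP without and with ActD, against 1359 and 1202 with Block. Most of that gap came from 1 CHGA clone, at 604.45 and 571.55 against 446.29 and 413.17. The other CHGA clones were not higher in both pairs. Of the 25 neuron marker clones 8 were higher in both pairs, beside 25.3% of all named clones above the limit, with a median of 0.16. Astrocyte marker clones summed to 1207 and 1102 against 1226 and 1036, with 7 of 20 higher in both pairs and a median of 0.06. The median was -0.01 over 8 oligodendrocyte clones, 0.02 over 8 microglia clones and 0.02 over 14 clones of fibroblasts and vessels, of which 5, 8 and 12 stood above the blank spots. GAP43, a growth cone protein with a single clone, was at 1.09 and 1.88 with BiC/4AP against 0.42 and 0.75 with Block (0.90 ± 0.18, limma adjusted p = 0.00018, 0.55 with print medians removed). MT3, a metallothionein on the astrocyte list with a single clone, was at 0.70 and 1.21 with BiC/4AP against 0.10 and -0.08 with Block (0.95 ± 0.18, adjusted p = 9.4e-05, 0.88 with print medians removed). The neuron markers STMN2 (-0.22 and -0.24) and SNAP25 (-0.07 and -0.19) were lower in both pairs. TUBB3 is itself a neuron marker. Fewer cells of a type and less RNA per cell cannot be told apart in such cultures, and the part of the cell mixture in the tubulin values was not tested.

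The arrays of 30 and 60 min played no part in choosing genes by direction and gave a second reading of each direction. They did count in the brightness limit, set on the mean over all 12 arrays, and in the scaling. Of the 61 genes higher at 5 min, 25 were above 0 over those 8 arrays (41.0%, against 36.7% of all 1059). Of the 96 lower genes, 64 were below 0 (66.7%, against 63.3%). The 30 min BiC/4AP array had the lowest median correlation with the other arrays, 0.913 against 0.926 to 0.95 for the rest. Without it the lower count was 40 of 96 (41.7%, against 58.0%), and without any other later array it was 53 to 70. Without the 30 min BiC/4AP + ActD array the higher count was 41 of 61 (67.2%, against 38.2%). None of the 1059 genes passed the later test (19 at an unadjusted p under 0.05), and none passed a test of the 5 min difference against the later ones (31 at an unadjusted p under 0.05, smallest limma adjusted p = 0.69).

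Later tubulin values lay on both sides of 0. TUBB3 was at -0.48 at 30 min and 0.09 at 60 min, TUBA1C at -0.01 and -0.11, TUBB4B at -0.21 and 0.13, and TUBB at -0.23 and -0.07. Of the 31 tubulin clones 8 were above 0 at 30 min and 15 at 60 min, with clone medians of -0.13 and -0.02. Of all 1059 gene means 36.7% were above 0 over the later arrays, and 608 were below 0 at 60 min. The medians of these gene means were -0.05 at 30 min and -0.03 at 60 min. The ribosomal protein genes had 34 of 38 below 0 over the later arrays, with a median of -0.24, against -0.05 over all 1059. Without the 30 min BiC/4AP array these were 27 of 38 (58.0% of all genes were then below 0) and -0.04 (-0.03 over all genes), and without the 30 min Block array 34 of 38 and -0.16. RPS24 had opposed pairs at 30 min, -1.70 without and 0.54 with ActD, and was at -0.29 and -0.41 at 60 min. Its later difference was -0.47 ± 0.33 (limma adjusted p = 0.74).

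**Figure D5:**
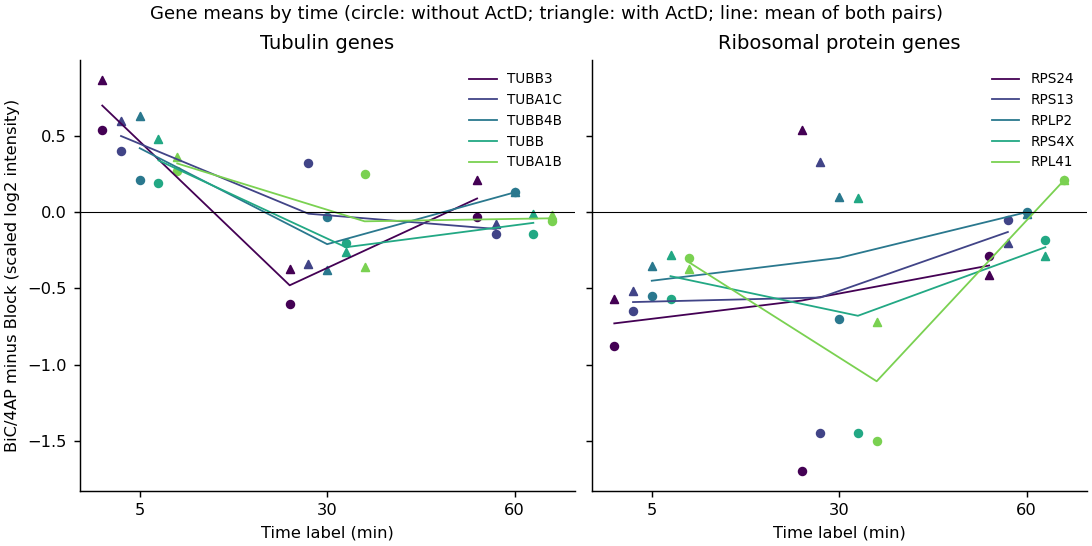
BiC/4AP minus Block difference (scaled log2 intensity, mean over clones) at the time labels of 5, 30 and 60 min for 5 tubulin genes (left) and 5 ribosomal protein genes (right), without ActD (circles) and with ActD (triangles), with lines through the mean of both pairs. The mean of TUBB3 stood at 0.70, -0.48 and 0.09, and RPS24 at 30 min was at -1.70 without and 0.54 with ActD.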

How the data were processed

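The authors reverse-transcribed RNA with a radioactive nucleotide, hybridized it to nylon arrays of cDNA clones and read spots from phosphor screens. The deposited values are raw intensities on a linear scale, not normalized between arrays, and the series table held the same values. Of 9600 spots 8496 carried 1 gene symbol, 21 several and 1083 none here. Array medians ran from 24.53 to 31.765 units at 5 min, and 99.6% to 100% of the clones described were brighter than 95% of blank spots on the same array. That blank level was 10 units at 5 min, which is also the placeholder value. The clones had already passed the brightness limit of 29.9, so a share near 100% followed from the choice. The number of arrays limits the precision.

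Log2 intensities were centred on the array mean, divided by the array SD and rescaled by 1.75, the SD averaged over the 12 arrays. Clone and gene-mean differences were tested in R 4.3.3 by limma 3.58.1 (linear model, eBayes with trend, two-sided, threshold 0.05 after Benjamini-Hochberg adjustment over all clones or genes), with ActD as covariate, 2 arrays against 2. A z-fold is a pair difference divided by its SD over spots. The fits and counts were tested on simulated data. Print blocks and positions were derived from the spot numbers, and the last of every 25 spots was taken as blank. The brightness limit was calculated from the mean over the 12 arrays. Values of exactly 10 were taken as placeholders.

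Named genes were the 12 per direction with the largest smallest absolute value among those whose clones shared a direction in both pairs, the 5 per direction with the smallest p, the 5 with the most clones, and up to 4 per gene list. Others are marked as named after their values were seen. Genes, lists and tests were chosen with earlier results of these data known. Alternatives were other scalings, print medians removed, other brightness limits, all 12 arrays in the fit and each array left out.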

Additional observations from a re-analysis of the deposited data

How the results depend on the processing

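No paired analysis was possible because every sample carries the same replicate number, so that no number matches samples across groups. The ActD covariate already sets each BiC/4AP array against the Block array of the same ActD state. The counts of calls depended on the spread that limma shared. Of clones, 121 passed in the 4-array fit, 1 with print medians removed, 1 without the intensity trend and 0 with all 12 arrays (408 at an unadjusted p under 0.05). Leaving out each 5 min array in turn in the 12-array fit gave 1 to 10. Of genes, 82 passed, against 14 after quantile normalization, 41 without the trend, 0 with print medians removed, 0 with all 12 arrays, 0 when only genes with 2 or more clones were fitted (93 at an unadjusted p under 0.05; added after seeing the data), and 0 to 3 with an array left out (107 to 257 at an unadjusted p under 0.05). The causes were not tested. The remaining scalings, brightness limits and a robust spread (added after seeing the data) stayed within 1.5 times.

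Genes with every clone higher numbered 32 above the dimmest 50% of spots, and those with opposed pairs 61. Genes with every clone lower numbered 62 with print medians removed. Clones past a z-fold of 1.4 numbered 21 without blank and placeholder spots, 23 without a brightness limit, which admits more clones, and 0 with print medians removed. With each later array left out in turn (all but the 30 min BiC/4AP array added after seeing the data), the count of lower genes below 0 later was 40 to 70 and of higher genes above 0 later 19 to 41.

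List medians with the brightest clone of each gene were -0.01 for immediate early, 0.01 for axon and cytoskeleton, -0.09 for transcription, -0.02 for respiratory chain, 0.06 for proteasome, -0.02 for heat shock, 0.40 for neuron markers, 0.11 for miR-326-3p and miR-330-5p targets and 0.10 for miR-485-5p targets. With print medians removed they were 0.00 for vesicles and release, 0.07 for mRNA decay, -0.02 for proteasome and -0.01 for miR-485-5p targets. After quantile normalization they were 0.05 for mRNA decay and -0.02 for proteasome. The ribosomal protein median stayed within the gap between the pairs under each.

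Of 479 values of 69 named genes under alternatives that kept all arrays, 471 kept their direction. With print medians removed COX7C (-0.02), NDUFA9 (0.02), BAG3 (0.04), PTBP1 (0.03) and TMEM51 (0.03) turned. VARS2 turned above the dimmest 50% (-0.10), and EEF1A1 under median centring (0.02) and quantile normalization (0.01). With 1 array left out, which leaves 1 pair, BTN2A2 was -0.22 to 2.07 and EEF1A1 -0.27 to 0.26.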
